A study of Mus musculus with 13 samples.

Results

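The effect of 17β-estradiol (E2) on binding of ESR1, estrogen receptor alpha, was examined in 3 vehicle libraries and 3 E2 libraries of an ESR1 ChIP-Seq experiment, selected by their treatment label. These were 6 of the 12 ESR1 libraries with a peak list and of 13 samples in all. All cultures were primary fibroblasts from the skeletal muscle of Aromhum mice, which carry the human aromatase gene and are used as a model of inguinal hernia. The cells were hernia-associated fibroblasts (HAFs) grown from lower abdominal muscle, passaged once and serum-starved overnight in medium without phenol red. Vehicle cultures received DMSO and then ethanol, and E2 cultures received DMSO and then 10 nM E2, and both were fixed 1 h later. Thus both groups carried the transgene and had been without serum, and the vehicle group is the baseline of these cells and not of wild-type fibroblasts. No source gave the number of mice or whether replicates were separate cultures, so the tests measure only the spread between these libraries. Culture on plastic after preplating selects adherent fibroblasts, a step the methods describe as limiting other cell types.

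ESR1 is a nuclear receptor that binds DNA as a dimer. E2 changes the shape of the receptor so that it holds DNA and coactivators more firmly. Its preferred DNA sequence, the estrogen response element (ERE), is a palindrome with the arms GGTCA and TGACC separated by 3 bases of any kind. ESR1 also reaches DNA through other factors, of which AP-1 is the best known, and in many cell types most of its sites lie far from gene starts. Here an ERE was scored when a summit, the highest point of a peak, had the palindrome with at most 1 mismatch within 100 bp.

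The following sequences are examples, taken only from regions with an ERE and outside annotated exons. Most regions that differed had no ERE. Without E2 replicate 1, one lay at 34.9% of regions that rose in rank with E2 and at 5.63% of those found in no vehicle list. Greb1 and Pgr are the genes whose sites the study used as positive controls for the ChIP. Fgd2, Dnmt3a and Ptpn5 name sites among the 10 that moved farthest toward the top of the list with E2. Hdac4, Ceacam3 and Mast2 name sites among the 10 best-ranked that were found with E2 and in no vehicle list. Ncam1, Col6a3 and Fbln2 lie nearest to sites of listed genes that rose, and Rai1 had among the largest test statistics with all 6 lists. Each is named for the protein-coding gene with the nearest start, read 5′ to 3′ on the plus strand of mm10 (RefSeq GRCm38.p6), with the 13-base match in capitals.
Greb1, chr12:16760507-16760567: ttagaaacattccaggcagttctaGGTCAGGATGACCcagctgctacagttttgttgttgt
Pgr, chr9:8732994-8733054: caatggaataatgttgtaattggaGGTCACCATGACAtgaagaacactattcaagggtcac
Fgd2, chr17:29428447-29428507: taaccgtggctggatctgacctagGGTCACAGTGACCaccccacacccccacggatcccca
Dnmt3a, chr12:3729738-3729798: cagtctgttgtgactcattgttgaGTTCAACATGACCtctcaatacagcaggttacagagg
Ptpn5, chr7:47108982-47109042: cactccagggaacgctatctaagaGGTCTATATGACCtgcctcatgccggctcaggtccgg
Hdac4, chr1:92078097-92078157: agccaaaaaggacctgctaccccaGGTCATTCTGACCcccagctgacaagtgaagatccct
Ceacam3, chr7:17155909-17155969: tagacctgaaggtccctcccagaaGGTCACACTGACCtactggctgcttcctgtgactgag
Mast2, chr4:116464814-116464874: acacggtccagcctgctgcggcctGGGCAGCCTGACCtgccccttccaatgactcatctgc
Ncam1, chr9:49827823-49827883: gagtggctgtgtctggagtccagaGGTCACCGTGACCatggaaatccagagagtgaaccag
Col6a3, chr1:90738486-90738546: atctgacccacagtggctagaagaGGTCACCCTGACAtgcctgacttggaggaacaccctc
Fbln2, chr6:91205464-91205524: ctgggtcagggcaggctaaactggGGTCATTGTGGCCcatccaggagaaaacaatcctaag
Rai1, chr11:60176792-60176852: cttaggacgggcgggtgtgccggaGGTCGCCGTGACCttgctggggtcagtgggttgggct
The Greb1, Fgd2, Hdac4, Ceacam3 and Ncam1 matches had no mismatch in the arms. The other 7 matches had 1 mismatch.

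Peaks were ranked within each list by their q-value, rank 1 being the strongest. E2 lists held 104571, 60910 and 68971 peaks in replicates 1, 2 and 3, and vehicle lists held 51239, 34293 and 39763. Read depth recovered from the peak statistics was 96.3% to 104% of the median library in 5 of the 6, and 39.1% in E2 replicate 1. In E2 replicate 1, 59.4% of peaks lay in repeat-masked sequence, against 5.91% to 7.79% in the other 5. Promoters of 11 to 13 of 14 fibroblast markers carried a peak in every list, Pdgfra, Pdgfrb, Col1a1 and Prrx1 among them. Of 8 myogenic markers none had a promoter peak in 5 lists, and Pax7 had one in E2 replicate 1. E2 replicate 1 also had peaks at the promoters of 5 of 5 epithelial and 4 of 6 endothelial markers, where the other 5 lists had 0 or 1 and 0 to 2. Of 7 immune markers only Cd68 had a promoter peak, in 5 lists, and 1 or 2 of 4 adipocyte markers and 1 or 2 of 4 Schwann cell markers did. The part of depth, repeats and these markers in the results was not tested, and the comparisons are given with and without E2 replicate 1.

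E2 replicates 2 and 3 differed from vehicle at the top of the list. Among the 500 strongest peaks, an ERE lay at 17.2%, 14.8% and 18.4% of summits in vehicle replicates 1, 2 and 3, and at 2%, 47.2% and 37.2% in E2 replicates 1, 2 and 3. The same 500 peaks lay within 3 kb of a gene start, here called promoter peaks, in 73.4%, 72.4% and 67.2% of cases with vehicle and in 88%, 17.2% and 39% with E2. E2 replicates 2 and 3 thus lay on one side of all vehicle libraries in both measures and E2 replicate 1 on the other. Counted among the distal peaks of these 500 alone, those over 3 kb from a start, the ERE share was 56.4%, 48.6% and 51.8% with vehicle and 6.67%, 49.3% and 52.8% with E2, so that E2 replicates 2 and 3 lay within the vehicle range there. Between ranks 2001 and 5000, EREs were at 3.03%, 2.83% and 2.67% of vehicle summits and at 1%, 6.73% and 5.13% of E2 summits. Between ranks 20001 and 30000 the shares were 1.43%, 1.05% and 1.29% with vehicle and 0.5%, 2.74% and 2.21% with E2.

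The enrichment behind a given rank also differed. The peak at rank 1000 had a −log10 q of 29.2, 21.3 and 17.9 in the vehicle libraries and of 87.8, 51.7 and 63.1 in the E2 libraries. All 3 E2 values lay above all 3 vehicle values, although the depth of E2 replicates 2 and 3 was within the range of the vehicle libraries. At rank 5000 the values were 12.6, 8.53 and 7.38 with vehicle and 39.3, 22.2 and 29.2 with E2.

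**Figure D1:**
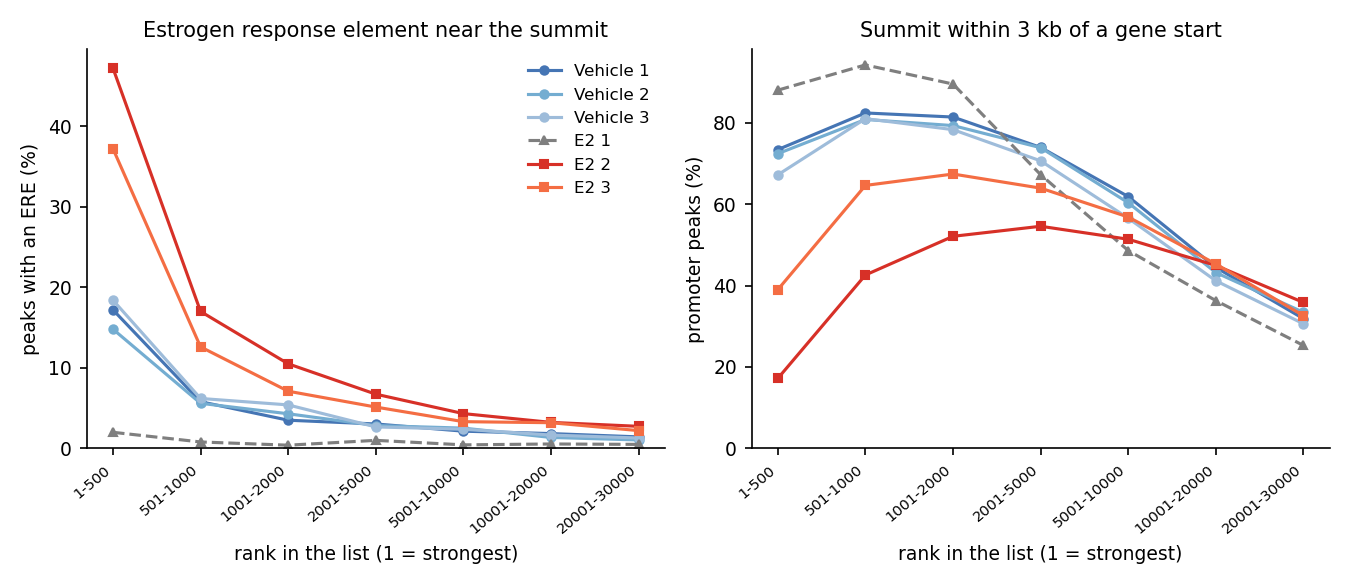
Share of peaks with an ERE near the summit (left) and of promoter peaks (right), in percent, against rank within the list, for the 3 vehicle and 3 E2 libraries; each point is 1 rank bin of 1 library. E2 replicates 2 and 3 start at 47.2% and 37.2% ERE, vehicle at 14.8% to 18.4%, and E2 replicate 1 at 2%.

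Over the 5000 strongest peaks the promoter share was 76.2%, 75.5% and 72.9% with vehicle and 76.5%, 49.1% and 62.2% with E2. The means were 74.9% ± 1.77 with vehicle and 62.6% ± 13.7 with E2 (SD, n = 3 each), and the difference of -12.3 percentage points was within the scatter of the E2 group (exact permutation test, two-sided here and below, p = 0.4, or 0.667 adjusted over 5 measures). Without E2 replicate 1 the difference was -19.2 points, and both remaining E2 libraries lay below all vehicle libraries (exact permutation p = 0.2, the smallest that 2 against 3 allows). With 3 against 3 the smallest p of the exact permutation test is 0.1, so no single measure can reach 0.05 by it.

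Distal peaks showed the same division between libraries at an equal number. Among the 5000 strongest distal peaks an ERE lay at 6.54%, 6.08% and 6.48% with vehicle and at 0.44%, 13.7% and 11.3% with E2. The mean difference was 2.13 points (exact permutation p = 0.7, or 0.875 adjusted) and 6.15 points without E2 replicate 1 (exact permutation p = 0.2). Over all distal peaks the share was 2.18%, 2.55% and 2.46% with vehicle and 0.773%, 3.69% and 2.99% with E2, where the search centred 2 kb upstream of the same summits gave 0.588% to 0.625% in the 5 libraries other than E2 replicate 1. In E2 replicate 1 that background was 1.19%, above the share at its summits. The mean difference was 0.0874 points (exact permutation p = 1) and 0.943 points without E2 replicate 1 (exact permutation p = 0.2).

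EREs under promoter peaks were fewer and divided the libraries in the same way. They lay at 1.01%, 1.04% and 1.08% of promoter peaks with vehicle and at 0.699%, 1.75% and 1.46% with E2, and the means differed by 0.258 points (exact permutation p = 0.4, or 0.667 adjusted). The gap widened to 0.560 points when E2 replicate 1 was left out (exact permutation p = 0.2). The median distance of a distal summit to the nearest gene start was 18, 17.6 and 18.5 kb with vehicle and 22.1, 19.2 and 19.1 kb with E2, all 3 E2 libraries above all 3 vehicle libraries (difference 2.08 kb, exact permutation p = 0.1, which is the lowest attainable, or 0.5 adjusted). The difference was 1.08 kb without E2 replicate 1 (exact permutation p = 0.2), and it turned to -0.469 kb when repeat-masked peaks were left out of all 6 lists (exact permutation p = 1).

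Apart from E2 replicate 1, vehicle and E2 lists shared most of their strongest sites. Of the 5000 strongest peaks of 1 vehicle library, 96.7% to 98.9% overlapped any peak of another vehicle library, and E2 replicates 2 and 3 shared 99.98% and 100% with each other. Between a vehicle library and E2 replicate 2 or 3 the share was 88.1% to 99.9%, and in any pairing with E2 replicate 1 it was 57.4% to 80.6%. When both members had to be among the 5000 strongest, the shares were 64.8% to 72.6% between vehicle libraries, 69.2% and 70.3% between E2 replicates 2 and 3, and 53.8% to 70.5% between vehicle and E2 replicate 2 or 3.

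The 6 lists were then merged into 179469 regions, joining peaks that overlapped by at least 1 bp. A peak in all 3 E2 lists and no vehicle list was found at 774 regions (0.431% of all merged regions), and the reverse at 36 (0.0201%), while 8801 regions had a peak in all 6 lists. With E2 replicate 1 left out, the remaining 5 lists merged into 96626 regions. Among them, 8041 (8.32%) had a peak in E2 replicates 2 and 3 and in no vehicle list, 45 (0.0466%) had a peak in every vehicle list and in neither E2 list, and 14926 were shared by all 5. The rule then asks for 2 E2 lists against 3 vehicle lists, so that the counts in the 2 directions do not rest on the same number of lists. With 1 vehicle replicate left out as well, 9145 to 13704 regions were found with E2 and 161 to 428 with vehicle. The 5 and the 6 lists were merged separately. A region without a vehicle peak in the first merge can therefore be joined to a vehicle peak in the second, through a peak of E2 replicate 1.

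List length differed with treatment, and the count depended on it. When each list was cut to its 30000 strongest peaks, 176 regions were in all 3 E2 lists and no vehicle list and 165 the reverse. At 5000 peaks the counts were 19 and 88, more regions being particular to the vehicle lists. Without E2 replicate 1 the counts were 2489 with E2 and 237 with vehicle at 30000 peaks, and 609 and 184 at 5000. The lengths other than 30000 were added after seeing the data.

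**Figure D2:**
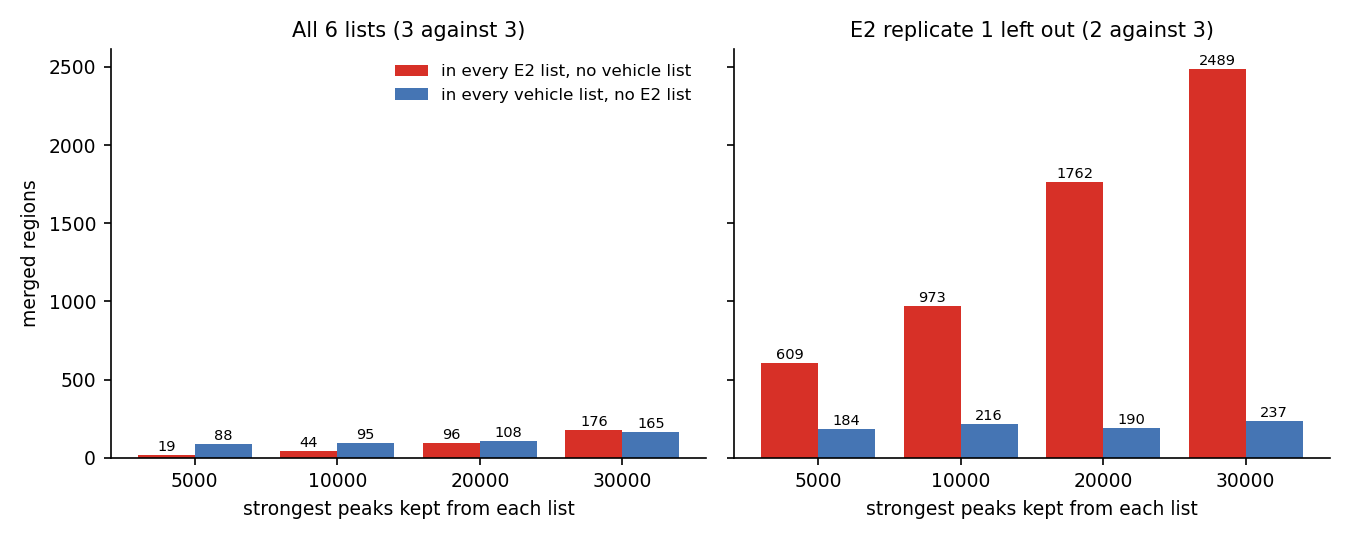
Number of merged regions (vertical axis) in every E2 list and no vehicle list (red) or the reverse (blue) when each list is cut to its 5000 to 30000 strongest peaks (horizontal axis), with all 6 lists (left) and without E2 replicate 1 (right). At 30000 peaks the pairs are 176 and 165 on the left and 2489 and 237 on the right.

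Regions found with E2 and absent with vehicle were mostly weak. Of the 5756 regions of E2 replicates 2 and 3 whose mean position was in the top 10% of their lists, 51 (0.886%) had no peak in any vehicle list. Of the 8308 regions below the 60th percentile, 3978 (47.9%) had none. In the reverse direction, 0 of 3088 regions in the top 10% of all vehicle lists were absent from E2 replicates 2 and 3, and 32 of 1430 (2.24%) below the 60th percentile were. Thus no strong vehicle site was absent from both E2 replicates 2 and 3, whose lists were longer than any vehicle list. With each list cut to its 5000 strongest peaks, 184 regions were in every vehicle list and in neither of these E2 lists. In the full lists strong sites differed in rank more than in presence.

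The 8041 regions of E2 replicates 2 and 3 and the 774 of all 3 E2 lists differed in kind. Promoter regions made up 19.5% of the first (Wilson 95% interval 18.7% to 20.4%) and 47.3% of the second (43.8% to 50.8%), against 57.6% of the 14926 regions shared by 5 lists and 77.1% of the 8801 shared by all 6. The median distance to a gene start was 15.0 kb in the first and 3.71 kb in the second, and 0.878 and 0.27 kb in the respective shared regions. An ERE lay in 5.63% of the first (5.15% to 6.16%) and in 3.36% of the second (2.30% to 4.88%). The search 2 kb upstream gave 0.572% and 0.388%. Repeat-masked sequence made up 6.35% and 16.8%, and the GC box GGGCGG, a motif of CpG-rich promoters, was in 4.70% and 25.8%. Each of the intervals covers counting error over regions only.

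Other short motifs were searched on both strands within 100 bp of the summit. The AP-1 motif TGANTCA was in 14.7% of the 8041 regions and in 6.08% of windows 2 kb upstream, and in 5.81% and 3.62% for the 774. The TEAD motif GGAATG was in 15.9% of the 8041 and 10.8% upstream. The single ERE arm AGGTCA, which overlaps the full ERE, was in 23.3% and 12.3%. RUNX (TGTGGT) was in 15.6% and 15.0%, the glucocorticoid receptor arm AGAACA in 19.1% and 17.8%, and the forkhead motif TGTTTAC in 2.89% and 2.95%. An ETS motif (CCGGAAG) was in 1.01% against 0.746% upstream, and the NF1 palindrome in 1.29% against 0.386%. A match is a description of sequence and not a bound factor.

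The best-ranked of the 8041 regions lay near genes of several kinds. A region 70.3 kb downstream of the start of Hdac4, which encodes a class IIa histone deacetylase, had an exact ERE and ranked 2364 and 4317 in E2 replicates 2 and 3. The region 0.687 kb upstream of Mast2, a microtubule-associated kinase, ranked 3710, 1629 and 1811 in E2 replicates 1, 2 and 3. A region 5.66 kb from the start of Ceacam3, a cell adhesion gene, had an exact ERE and ranked 3122 and 4091. Regions near Tnfaip3, which encodes an inhibitor of NF-κB signalling, and Nt5c2, a nucleotidase, ranked 2357 and 4497, and 2147 and 2203. The 10 also included regions nearest to Dym, Atp8b1, Tcf4, Rock1 and Diras2. None of these 10 had a peak in a vehicle list, as the rule requires.

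Among the 774 regions the best-ranked was 89.6 kb upstream of Bhlhe40, a transcriptional repressor of the circadian clock, at ranks 1578, 4315 and 10556 in E2 replicates 1, 2 and 3. A region 13.7 kb downstream of the start of Gadd45b, a stress-response gene, ranked 19730, 3899 and 8267. The other 8 lay nearest to Galnt17, Gpr83, 1700129C05Rik, Anks1, Arhgap25, Ndufaf6, Eps15l1 and Kif16b, and those at Anks1, Ndufaf6, Eps15l1 and Kif16b were at most 0.225 kb from the gene's start. Of the 36 regions in the reverse direction the best-ranked was 46 kb downstream of the start of Ptgs1, which encodes cyclooxygenase-1, at ranks 13612, 24451 and 15175 with vehicle. None of the 36 had an ERE, which allows a share of up to 9.64% (Wilson 95%).

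The ranks of shared sites were compared with limma after each library's shared regions had been ranked anew from 1, on the log2 scale. A positive shift means that a region was nearer the top with E2, and a shift of 1 is a rank that is 2 times closer to 1. With all 6 lists, 0 of 8801 shared regions (0%) passed a Benjamini-Hochberg adjusted p of 0.05, and 401 had an unadjusted p below 0.05. The smallest adjusted p was 0.204. Without E2 replicate 1, 510 of 14926 regions (3.42%) rose with E2 and 58 (0.389%) fell by limma's adjusted p, and 2007 had an unadjusted p below 0.05. This remained a comparison of 2 libraries with 3.

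The 3 regions with the smallest adjusted p in the comparison of all 6 lists were near the top in every E2 library. The region 3.0 kb from the start of Mylk2, the myosin light chain kinase of skeletal muscle, ranked 6124, 11109 and 37686 in vehicle replicates 1, 2 and 3 and 93, 504 and 1131 in E2 replicates 1, 2 and 3. Its shift was 4.54 ± 0.859 (SE; limma adjusted p = 0.204). The region in Rai1, a transcriptional regulator, ranked 6400, 9205 and 14441 with vehicle and 235, 448 and 1328 with E2, with a shift of 3.89 ± 0.779. The region near Cmklr1, the chemerin receptor, ranked 6172, 9728 and 5989 with vehicle and 400, 203 and 633 with E2, with a shift of 4.02 ± 0.798. In all 3 the E2 and vehicle ranks did not overlap, but the 3 were chosen by these same ranks, so this adds no support.

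The next by test statistic lay near Fam43a, Col6a2, Gadd45b, Fam92b, Ptpn5, Il17ra and D7Ertd443e, each with a limma adjusted p of 0.945. The Gadd45b region, 6.38 kb from the start, ranked 2857, 7250 and 3077 with vehicle and 46, 253 and 1481 with E2. The region 41.2 kb upstream of Col6a2, a collagen VI chain, ranked 12486, 7384 and 7193 with vehicle and 2448, 526 and 884 with E2. At the other end were regions nearest to Psph, Golga2, Ptger1, Fam166a, Rps4x, B230217C12Rik, Rpl6, Slc8b1, Chordc1 and Ctnnb1. The Rpl6 promoter ranked 135, 128 and 106 with vehicle and 4864, 942 and 1660 with E2, a shift of -3.54 ± 1.1.

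Without E2 replicate 1, the 10 largest rises were at distal sites except those named for Lgr6, Ptpn5 and Pgap1. At Ptpn5 and Pgap1 the start within 3 kb was that of another annotated gene, Gm14377 and Gm37370. The region nearest to Selenof, a selenoprotein of the endoplasmic reticulum, ranked 10011, 9192 and 15353 with vehicle and 201 and 232 in E2 replicates 2 and 3, with no peak in E2 replicate 1. Its shift was 5.30 ± 0.718 (limma adjusted p = 5.36e-06). The region 77.2 kb from Dnmt3a, a de novo DNA methyltransferase, ranked 4785, 8293 and 6766 with vehicle and 140 and 156 with E2. The region nearest to Fgd2, an exchange factor for Cdc42, ranked 29774, 11378 and 7869 with vehicle, 309 and 209 in E2 replicates 2 and 3, and 81435 in E2 replicate 1. The E2 ranks of replicates 2 and 3 lay below all vehicle ranks at each of these sites, which were chosen by those ranks. E2 replicate 1, not used in the choice, lay beyond the vehicle ranks or had no peak.

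The region 2.75 kb upstream of Lgr6, a receptor for R-spondins in Wnt signalling, ranked 14769, 22447 and 6842 with vehicle, 257 and 287 in E2 replicates 2 and 3, and 61327 in E2 replicate 1. The rest of the 10 largest rises lay near Mrpl33, 1700021F07Rik, Ptpn5, Pgap1, Tspan13 and Lnx2, with shifts of 4.63 to 5.05. The Ptpn5 region was the only one of the 10 that was also among the 10 highest test statistics with all 6 lists, and its rank in E2 replicate 1 was 8150.

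The 58 regions that fell were nearly all promoters, 52 of 58 (89.7%). All 58 had a mean position in the top 10% of the lists, against 22.4% of all shared regions. Promoters made up 67.2% to 73.4% of the 500 strongest vehicle peaks, so their share among the falls is not separated from position in the list. The promoter of Rpl27, a protein of the large ribosomal subunit, ranked 21, 15 and 10 with vehicle and 7, 197 and 144 in E2 replicates 1, 2 and 3. Its shift without E2 replicate 1 was -3.52 ± 0.561 (limma adjusted p = 5.40e-05). The Rps7 promoter, of the small subunit, ranked 12 in each vehicle library and 3, 153 and 93 with E2. The promoter of Cct4, a subunit of the TRiC chaperonin, ranked 25, 25 and 30 with vehicle and 168, 378 and 249 with E2. The promoters of Rps6, Ddx39b, Csnk1d, Stam2, Rpl5 and Mrpl3 were also among the 10 largest falls. In E2 replicate 1 the Rpl27, Rps7 and Ddx39b promoters ranked above their best vehicle rank, while those of Cct4, Mrpl3 and Rpl5 ranked below their worst. At Rpl5 the margin was small, rank 185 against 184. The largest fall, -6.14 ± 0.830, was a region nearest to Arid1b that is 90.0% repeat-masked. It ranked 4, 62 and 27 with vehicle and 83, 269 and 7126 in E2 replicates 1, 2 and 3.

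A rank is relative, and a fall in rank need not be a fall in fold enrichment. Over 80 promoter regions of 72 ribosomal protein genes, a group chosen after the falls were seen, 13 (16.3%) fell and none rose by limma's adjusted p, against 39 of 8511 other promoter regions (0.458%) that fell. The median shift was -0.68 against -0.26 for other promoters. With all 6 lists the median shift of the 64 ribosomal regions they shared was -0.45, and none passed. Their median percentile was 13.1, 13 and 14.2 with vehicle and 22.6, 21.3 and 18.4 with E2, lower in the list in all 3 E2 libraries. The group was chosen from falls in these same libraries, so these contrasts describe it and do not test it. Its regions also began nearer the top. With 5 lists their vehicle percentiles were 12.8, 14.7 and 14.2, against 38.3, 38.7 and 40.7 for promoters without an ERE. The median deposited fold enrichment of the same 80 regions was 5.04, 4.40 and 4.27 in vehicle replicates 1, 2 and 3 and 5.42 and 6.81 in E2 replicates 2 and 3. The median fold of these 80 regions was thus higher in both E2 libraries while their median rank was lower. Single regions that fell varied, since the fold at the Rpl5 promoter was 8.04, 6.41 and 6.72 with vehicle and 5.84 and 7.45 in E2 replicates 2 and 3, which overlap.

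The class of a region and its shift went together. Without E2 replicate 1, the median shift of 505 shared regions with an ERE was 1.64, and 178 of them (35.2%) rose while none fell. Among 5951 distal regions without an ERE the median shift was 0.08, and 292 (4.91%) rose. Among 8470 promoter regions without an ERE it was -0.27, and 40 (0.472%) rose and 52 (0.614%) fell. EREs were therefore at 34.9% of the regions that rose (Wilson 95% interval 30.9% to 39.1%), at 3.38% of all shared regions, and at 0 of the 58 that fell, which allows a share of up to 6.21%. The 2 kb upstream windows of the regions that rose gave 0.588%. Within promoters, 27 of 121 regions with an ERE rose (22.3%), and within distal regions 151 of 384 did (39.3%). Of all shared regions, 42.0% had a positive shift and the median was -0.10. With all 6 lists the 232 shared ERE regions had a median shift of 0.46, 67.7% of them positive, and none passed.

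**Figure D3:**
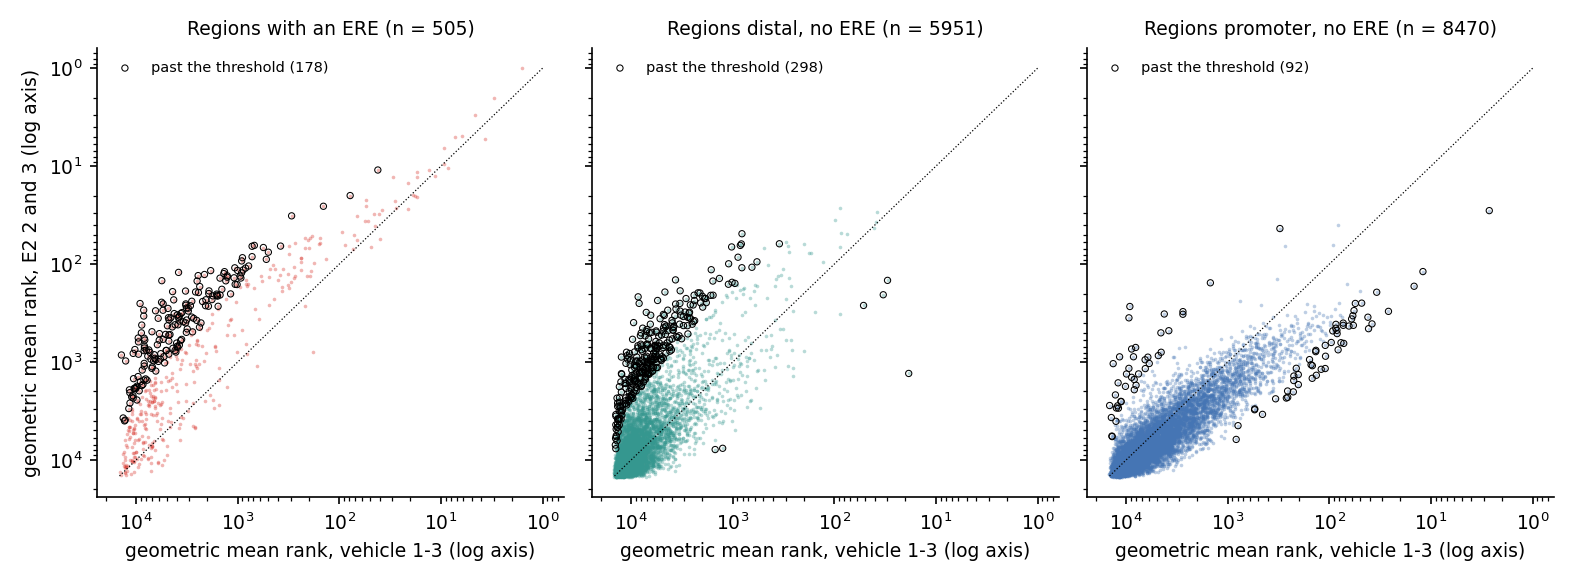
Geometric mean rank among shared regions in E2 replicates 2 and 3 (vertical log axis) against vehicle replicates 1 to 3 (horizontal log axis), the top of the list at the upper right, for shared regions with an ERE, distal regions without one and promoter regions without one; each point is 1 region, the dotted line is equal rank and open circles passed an adjusted p of 0.05. In the ERE panel 178 regions passed, all above the line, while 292 distal and 40 promoter regions without an ERE passed above it.

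As a value per library, the median shared ERE region lay at the 30.6th, 31.6th and 27.8th percentile with vehicle and at the 3.97th and 7.66th in E2 replicates 2 and 3 (0 is the top; exact permutation p = 0.2, the smallest that 2 against 3 allows). With the 232 ERE regions shared by all 6 lists, the percentiles were 22.9, 25 and 20.1 with vehicle and 77.7, 2.29 and 4.37 with E2 (exact permutation p = 1). E2 replicate 1 thus had the ERE sites lower than any vehicle library, and E2 replicates 2 and 3 had them higher. The deposited fold at the same 232 regions had medians of 5.80, 4.70 and 4.63 with vehicle and 6.05, 14.7 and 13 with E2. At 6702 promoter regions without an ERE it was 4.15, 3.52 and 3.41 with vehicle and 11.4, 4.57 and 5.55 with E2. The high fold values of E2 replicate 1 were therefore at promoters and those of E2 replicates 2 and 3 at ERE sites. The summary by class was added after seeing the data.

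Regions that rose held other motifs as well. The AP-1 motif was in 20% of the 510 and in 6.17% of all shared regions, with 5.29% in the windows upstream of the 510. The TEAD motif was in 20% and 11.1%, with 13.3% upstream. The GC box was in 2.16% of the regions that rose, in 20.1% of all shared regions and in 36.2% of those that fell. The ETS motif was in 17.2% of the regions that fell and in 3.95% of all shared regions. Promoters hold GC boxes and ETS motifs more often than distal sequence does. None of the motif shares above, AP-1 and TEAD included, was separated from the promoter share of each set. Promoters made up 13.1% of the 510, 57.6% of all shared regions and 89.7% of those that fell.

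At Greb1, an early target of ESR1 in breast cells, 3 regions were nearest to the gene, and all 3 had an ERE. The region 3.29 kb upstream of the nearest annotated start, at chr12:16760253-16760831, has the exact palindrome printed above. It ranked 4902, 5816 and 6805 with vehicle and 685 and 3297 in E2 replicates 2 and 3, with no peak in E2 replicate 1. The shift was 1.84 ± 0.708, which did not pass (limma adjusted p = 0.174). The deposited fold at its summit was 6.23, 4.89 and 4.55 with vehicle and 16.0 and 11.1 with E2. A region 7.68 kb upstream had peaks in vehicle replicates 2 and 3 only, at ranks 19869 and 11247, and ranked 2746 and 7073 with E2. The third, 10.1 kb inside the gene, ranked 25340 in vehicle replicate 3 and 3137 and 13232 with E2. In each of the 3 the E2 ranks of replicates 2 and 3 were better than every vehicle rank.

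At Pgr, which encodes the progesterone receptor, the sites that moved lay far upstream of the gene. The region 147 kb upstream, at chr9:8751629-8753155, ranked 17594, 6592 and 4269 with vehicle and 383 and 665 in E2 replicates 2 and 3. Its shift of 3.66 ± 0.722 passed without E2 replicate 1 (limma adjusted p = 0.000838), and it had no peak in E2 replicate 1. The deposited fold there was 3.86, 4.67 and 5.23 with vehicle and 20.2 and 17.5 with E2. The region 159 kb upstream ranked 31697, 8423 and 39722 with vehicle and 2055 and 3699 with E2, with a shift of 2.16 ± 0.610 (limma adjusted p = 0.0269). Neither had an ERE at its summit. The ERE shown above belongs to a region 167 kb upstream, 50.7% repeat-masked at its summit, that ranked 39911 and 14650 in vehicle replicates 1 and 3, 4101 and 10839 in E2 replicates 2 and 3, and had no peak in vehicle replicate 2 or E2 replicate 1. At the gene itself, the region 1.47 kb downstream of the start had peaks only in E2 replicates 1 and 3, at ranks 27494 and 45732. Another, 6.86 kb downstream, ranked 17595 in vehicle replicate 1 and 11737 and 18458 in E2 replicates 2 and 3, so that its ranks overlapped.

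Regions were next assigned to the protein-coding gene with the nearest start. The 774 regions of all 3 E2 lists lay nearest to 736 of 21911 protein-coding genes (3.36%), the 8041 regions of E2 replicates 2 and 3 to 4352 (19.9%), and the 510 that rose to 437 (1.99%). Genes in large gene-poor stretches collect more regions of any kind, so the share of a gene's regions is given beside the count. Kcnma1, a calcium-activated potassium channel, had 20 of the 8041, out of 266 regions nearest to it (7.52%), below the 8.32% of all regions. Myc, a transcription factor of cell growth, had 15 of 91 (16.5%) and Pid1 15 of 64 (23.4%). Plpp3 had 13 of 84, Tcf4 13 of 101, Foxp1 13 of 126, Gm12728 13 of 74, Lpp 12 of 92 and Rbms3 12 of 133. The genes with most rising regions were Zfp608, with 7 of 15 shared regions, and Trim52, with 5 of 13, named here after their values were seen.

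Gene lists were read against these backgrounds. Of 28 genes known as estrogen targets in other tissues, 57.1% were nearest to at least 1 of the 8041 regions, and 12.2% of the list's 466 regions were among them, against 8.32% of all regions. In the same terms the list of receptors and coregulators had 9.54%, immediate early and AP-1 genes 10.6%, TGF-β and BMP genes 9.23%, Wnt genes 8.83%, matrix genes 9.33%, growth factor genes 9.21% and YAP, TEAD and mechanosensing genes 11.5%. All of these shares lay between 8.83% and 12.2%, near the background, and the high shares of genes (43.5% to 86.4%) went with many regions per gene (a median of 8 to 19.5 per list, against 2 for all genes). Of the 28 growth factor genes, 9 (32.1%) were nearest to a region of all 3 E2 lists, against 3.36% of all genes, among them Vegfa, Fgfr1, Pdgfa, Pdgfrb and Ccnd1. The same share was 18.2% for matrix genes, 15.4% for receptors and coregulators, 14.3% for estrogen targets, 13% for immediate early genes, 8.82% for TGF-β and BMP genes, 8.70% for YAP, TEAD and mechanosensing genes and 0% for Wnt genes. Growth factor genes had a median of 17.5 regions each, so this count too is not separated from the number of regions per gene. No growth factor region rose in rank.

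Among shared regions the lists differed more. Of the 48 shared regions nearest to estrogen target genes, 5 rose (10.4%), against 3.42% of all shared regions. That background joins 6335 distal regions, of which 6.99% rose, and 8591 promoter regions, of which 0.78% rose. The shares of the lists were not separated from their mix of distal and promoter regions. For receptors and coregulators 6 of 68 rose (8.82%), for Wnt genes 6 of 81 (7.41%), for matrix genes 12 of 201 (5.97%), for TGF-β and BMP genes 3 of 102 (2.94%), for immediate early genes 1 of 61 (1.64%) and for YAP, TEAD and mechanosensing genes 1 of 65 (1.54%). For the 16 genes that the study chose from its own E2 results, 9 of 68 rose (13.2%), which is not independent of these libraries. The other lists were also chosen with earlier results of these data known. Lists share regions too: the rising Esr1 and Pgr regions count among both estrogen targets and receptors, and those of Pgr also among the study's genes. Differences between lists were not tested. No region of any list fell. All of these counts leave out E2 replicate 1, and with it none passed.

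**Figure D4:**
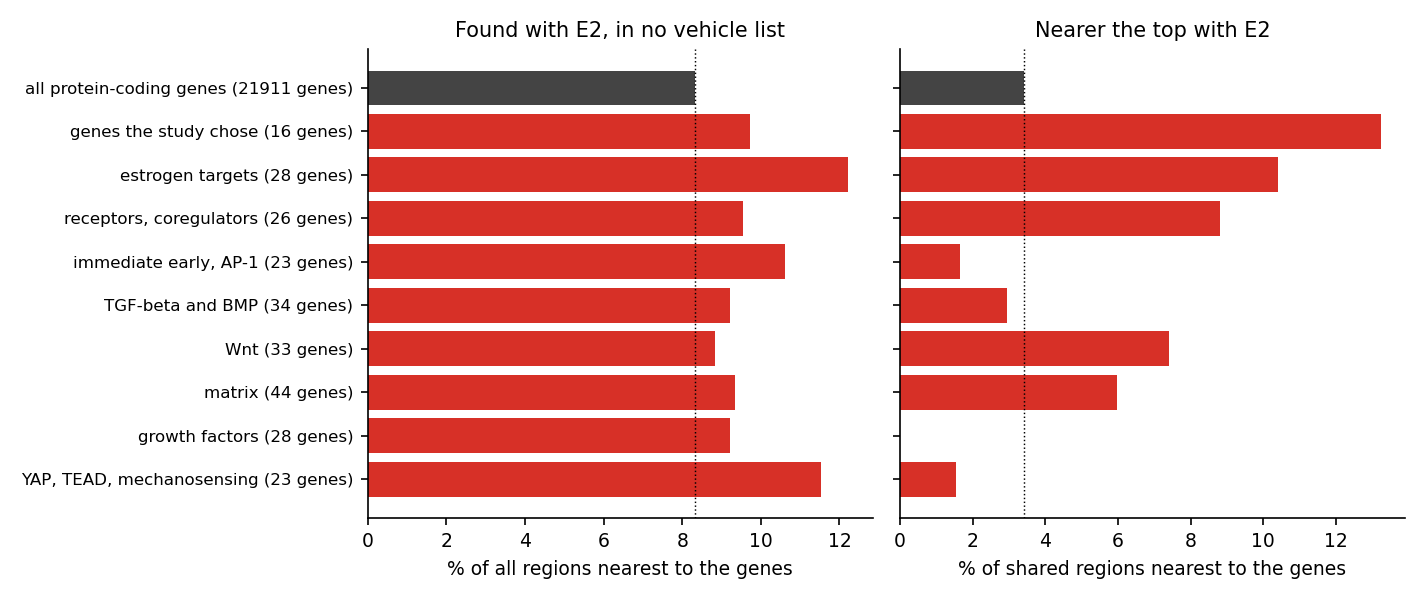
Percent of all merged regions nearest to the genes of a list that were in E2 replicates 2 and 3 and no vehicle list (left), and percent of its shared regions that rose in rank with E2 (right); the dark bar and the dotted line are all protein-coding genes, 8.32% and 3.42%. The left bars stay between 8.83% and 12.2%, while the right bars range from 0 to 13.2%. Neither panel separates distal from promoter regions.

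The receptor and coregulator genes with a rising site were Esr1, Pgr, Nr3c1 and Tle3. The other estrogen receptor genes, Esr2 and Gper1, had no shared region to compare. Sgk1 and Ccn5, described last, are from the list of estrogen targets. In Esr1 itself, the region 6.81 kb downstream of a start ranked 2179, 4919 and 847 with vehicle and 242 and 314 in E2 replicates 2 and 3, and 78856 in E2 replicate 1 (shift 2.84 ± 0.776, limma adjusted p = 0.0204). Tle3, a corepressor of the Groucho family, had rising regions 203 and 208 kb upstream, with shifts of 2.99 and 2.68. Nr3c1, the glucocorticoid receptor gene, had a region at ranks 8726, 7036 and 10544 with vehicle and 422 and 3386 with E2. Sgk1, a kinase induced by steroid hormones, had a region 59.6 kb upstream at ranks 5666, 7293 and 11354 with vehicle and 347 and 494 with E2 (shift 3.98 ± 0.714, limma adjusted p = 0.000252). The promoter region of Ccn5, a matricellular protein, ranked 16885, 7559 and 3151 with vehicle, 591 and 1952 in E2 replicates 2 and 3, and 18125 in E2 replicate 1. In each of these, named because they rose, the ranks of E2 replicates 2 and 3 lay below all vehicle ranks.

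Matrix genes, the list with most shared regions, had 12 rising regions of 201 (5.97%). That share was below those of estrogen targets, receptors and coregulators, and Wnt genes. Dcn, which encodes the collagen-binding proteoglycan decorin, had 2. The region 41.0 kb from its start ranked 38773, 10064 and 9394 with vehicle and 276 and 571 with E2 (shift 4.58 ± 0.705, limma adjusted p = 3.31e-05), and the other had a shift of 3.98. The region 6.98 kb upstream of Fbln2, a fibulin of elastic fibers and basement membranes, ranked 6989, 23799 and 11588 with vehicle, 466 and 561 in E2 replicates 2 and 3, and 40402 in E2 replicate 1. A region 105 kb from the start of Col6a3, a collagen VI chain, ranked 15040, 25382 and 34246 with vehicle and 707 and 1450 with E2 (shift 3.70 ± 0.648). Further regions that rose lay near Col5a1, Col6a2, Fn1, Fbln7, Thbs1, Thbs2 (2 regions) and Timp3, an inhibitor of matrix proteases. The Timp3 region ranked 1258, 1656 and 1302 with vehicle and 168 and 117 with E2. Col1a1, Col1a2 and Col3a1, which encode chains of collagens I and III, had no rising region among 5, 12 and 6 shared regions.

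In the TGF-β list, sites near the receptors Tgfbr2 and Tgfbr3 and near Ltbp1, which stores latent TGF-β in the matrix, rose with shifts of 3.56, 3.25 and 4.05. The Tgfbr2 region, 168 kb upstream, ranked 4311, 20534 and 4078 with vehicle, 399 and 594 in E2 replicates 2 and 3, and 17021 in E2 replicate 1. Tgfb1, Smad2 and Smad4 had no shared region to compare, and the 1 shared region of Smad3 did not pass. In the Wnt list, regions rose near the ligand Wnt5a, its receptor Ror2 and the secreted inhibitors Sfrp1 (2 regions), Dkk2 and Dkk3. The Wnt5a region, 183 kb upstream, ranked 5611, 15819 and 12386 with vehicle and 482 and 1217 with E2 (shift 3.40 ± 0.696, limma adjusted p = 0.00129). The Dkk3 region ranked 543, 2238 and 3938 with vehicle and 157 and 278 with E2.

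Among the remaining genes the study chose, regions rose near Piezo2, a mechanically gated ion channel, Ncam1, a cell adhesion molecule, Nrp2, a co-receptor for semaphorins, and Ccn3, a matricellular protein. The Ncam1 region, with the exact palindrome shown above, ranked 3849, 4273 and 3079 with vehicle, 271 and 558 in E2 replicates 2 and 3, and 49306 in E2 replicate 1 (shift 3.15 ± 0.740, limma adjusted p = 0.00544). Adamts6 had 10 shared regions, of which none rose. The 1 rising region of the immediate early list, 27.8 kb from Ier2, was already strong with vehicle, at ranks 64, 90 and 87, and ranked 19 and 21 in E2 replicates 2 and 3 and 1406 in E2 replicate 1.

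**Figure D5:**
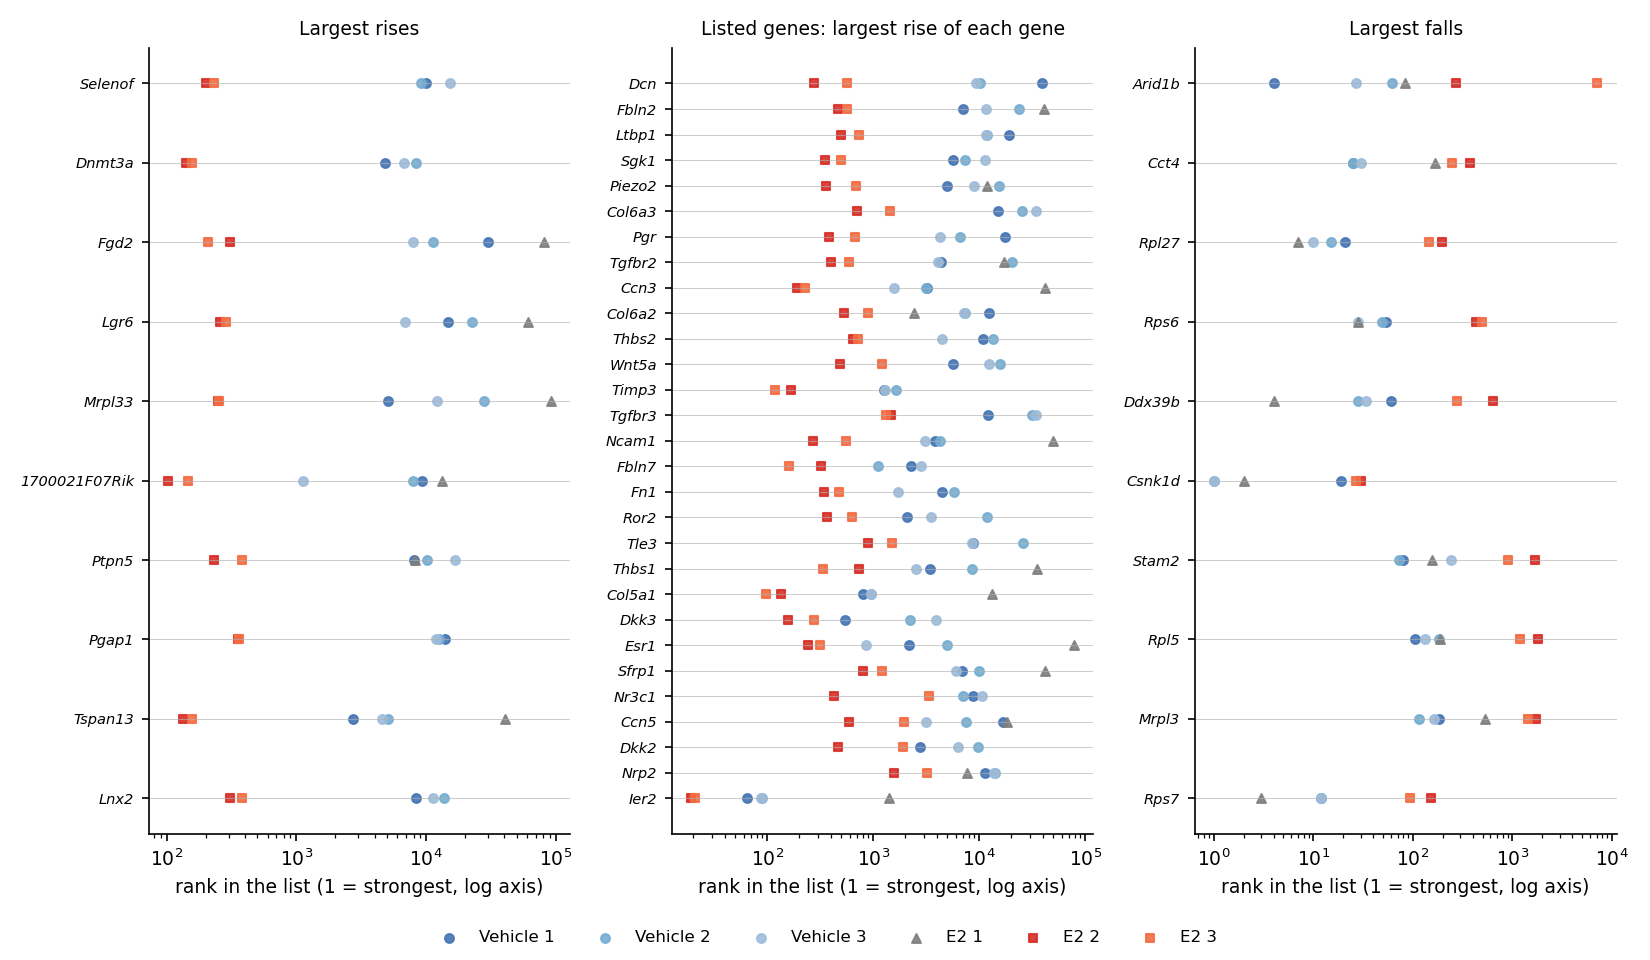
Rank within the list (horizontal log axis, 1 is the strongest) of the 10 regions with the largest rise, the region of each listed gene that rose most and the 10 regions with the largest fall, each row named for the nearest protein-coding gene; blue circles are vehicle, red and orange squares E2 replicates 2 and 3, grey triangles E2 replicate 1 where it had a peak. At the Fgd2 region the triangle stands at 81435, right of the vehicle ranks, while the squares stand at 309 and 209.

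The antagonist libraries of the same series gave a view of the same regions. Of the 8041 regions of E2 replicates 2 and 3, 21%, 40.5% and 59.3% had a peak in the 3 lists of E2 plus 100 nM fulvestrant, an antagonist that degrades ESR1, and 20.9%, 19.7% and 23.3% in those of fulvestrant alone (difference 19.0 points, exact permutation p = 0.2). Of the 510 that rose, 99.2%, 99.8% and 100% had a peak with E2 plus fulvestrant and 96.5%, 62.2% and 96.1% with fulvestrant alone (exact permutation p = 0.1, the lowest attainable). The 510 were drawn from regions with a peak in 5 lists, and over all 14926 such regions the shares were 91.1%, 95.4% and 97.9%, and 94.7%, 81.7% and 94.2%. For the 774 regions of all 3 E2 lists the shares were 29.5%, 41.6% and 51.9% with E2 plus fulvestrant and 32.6%, 74.2% and 32.3% with fulvestrant alone (exact permutation p = 0.8). Fulvestrant replicate 2, which gave both the 62.2% and the 74.2%, had a depth of 75.8% and 27.9% of its peaks in repeat-masked sequence.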

How the data were processed

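ESR1 ChIP-Seq peak lists of 3 vehicle and 3 E2 libraries were analysed. Per the labels and the methods, the authors used Trimmomatic for trimming, Bowtie2 for alignment to mm10, Picard for duplicates and MACS2 for peaks, which were called library by library. Each deposited list gave a fold enrichment (a ratio), −log10 p, −log10 q and an integer score at every peak; the score was not used. Per the methods, the authors filtered blacklisted peaks, and whether this was done before these lists were deposited was not tested. Reads were not counted, so the study's count model and batch removal could not be run, and the labels name no batch. Depth was recovered from the steps of the peak statistics, and ranks were taken within each list, since q-values depend on depth.

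Peaks of the lists were merged where they overlapped by at least 1 bp. Summits were assigned to GENCODE vM21 gene starts (promoter, within 3 kb), and a peak was called repeat-masked where lower-case letters made up more than 50% of the sequence reaching 100 bp to either side of its summit in the RefSeq GRCm38.p6 sequence. The 5 measures per library were compared by exact permutation tests (scipy 1.17.1), and ranks of shared regions by limma 3.58.1 (R 4.3.3) with Benjamini-Hochberg adjustment over all shared regions. On simulated ranks of the 6 lists (8801 regions, 200 moved), 47.1% of shifts of 2, 98.5% of shifts of 3 and 96.9% of shifts of 4 were recovered. The simulated spread came from the vehicle libraries alone, without that of E2 replicate 1. These shares therefore do not give the power of the real fit of 6 lists. There the Gadd45b region, with a shift of 3.94 ± 1.06, had a limma adjusted p of 0.945. Intervals are Wilson 95%. Named genes were those nearest to the 10 best-ranked regions found in 1 group alone, to the 10 largest rises and falls (by test statistic where none passed) and to most regions found with E2, the ChIP controls Greb1 and Pgr, and members of gene lists; 1 gene that the rule names, and a motif, are not reported here. The members and lists were chosen with earlier results of these data known. Other lengths of list, classes of region, rank scales and omissions were tried as alternatives. Columns of fold enrichment were used as deposited, as medians.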

Additional observations from a re-analysis of the deposited data

How the results depend on the processing

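No measure could pass the exact permutation test with 3 against 3, so the direction of the 5 measures is given in place of a call. The promoter share and the ERE share of promoter peaks kept their direction in every alternative run. The difference in ERE share of distal peaks, 0.0874 points, ranged from -0.514 to 0.943 with 1 library left out (-0.0221 without vehicle replicate 1, -0.166 without E2 replicate 3) and was -0.0720 when no mismatch was allowed. That of the 5000 strongest distal peaks ranged from -0.487 without E2 replicate 2 to 6.15 without E2 replicate 1. The median distance differed by -0.469 kb without repeat-masked peaks. With 1 library left out, the regions found with E2 and not vehicle numbered 947 to 8041, the reverse 45 to 369, and the shared regions 8682 to 14926. A peak in at least 2 of 3 lists gave 9534 and 708, summits extended by 100 bp gave 600 with E2 and 844 with vehicle alone, which turns the order of the counts, and 4654 shared, the 30000 strongest peaks gave 176 and 165 (2489 and 237 without E2 replicate 1), and a −log10 q of at least 2 or 10 left 7 or 0 in vehicle alone and, at 10, 1615 shared. The nearest genes rose from 736 to 4352 without E2 replicate 1. Same-numbered libraries did not deviate together (correlations of -0.00180, -0.0279 and 0.0222), so the numbers were not taken as a pairing. With a replicate block limma called 0 regions in either direction (423 at an unadjusted p below 0.05), and 308 higher and 46 lower when number 1 was left out of both groups. Leaving out 1 library gave 0 to 510 higher and 0 to 58 lower, with 2 higher without E2 replicate 3. Alternatives added after seeing the data, all without E2 replicate 1, gave 408 higher and 68 lower with normal scores, 1151 and 22 with whole-list percentiles, 502 and 55 without repeat-masked regions, 409 and 65 with extended summits, 267 and 46, 272 and 33, and 467 and 58 without vehicle replicate 1, 2 or 3, 103 and 8 with E2 replicate 3 alone and 479 and 17 with E2 replicate 2 alone. In the last 2 the lone E2 library was assumed to vary like vehicle. The cause of these changes was not tested. E2 replicate 1 had the lowest depth of the 6 libraries.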
